A study of Mus musculus with 9 samples.

Results

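The BCL2 family genes described here are Bax, Bak1, Bcl2, Bcl2l1, Bcl2l11, Bbc3, Pmaip1, Hrk, Bid, and Mcl1. They were chosen by name, with earlier results of these data known. All 10 were found among the 54532 genes of the count table and passed the filter on low counts, which kept 17540 genes. Bulk RNA-Seq was performed on retina taken at P17 from 9 wild-type C57BL/6 mice, which form 3 groups of 3. Control mice were raised in room air, and their labels also give DMSO. The other groups come from the model of oxygen-induced retinopathy (OIR), in which pups are kept in hyperoxia, which obliterates retinal vessels, and are then returned to room air, whereupon the retina becomes ischemic. OIR mice are labelled as hypoxia with DMSO, the vehicle, and received it as 1 intraocular injection at P12. For control mice no day of injection is given. Treated OIR mice received 1 intraocular injection at P12 of 32-134D, a small molecule that inhibits the hypoxia-inducible factors (HIFs), given as 70 ng/μL in the protocol and as 70 ng in the treatment label. Each mouse keeps the number in its title, which pairs no mice across groups. Whether mice shared litters is not given, so p-values measure the spread between these samples.

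BCL2 family proteins decide whether the outer mitochondrial membrane stays closed in a cell under stress. The effectors BAX and BAK open pores that release cytochrome c, the pro-survival members BCL2, BCL-XL, and MCL1 hold the effectors in check, and the BH3-only members bind the pro-survival proteins or activate the effectors. In the retina, BAX is known as a requirement for the death of injured ganglion cells, and BCL-XL as a major pro-survival protein of neurons. These proteins are also regulated by cleavage, phosphorylation, or degradation, which mRNA counts do not show.

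Total counts ranged from 16028731 to 27213184 per mouse. Treated OIR mouse 2 stood apart, with 15.8% of its counts in lens crystallin genes, against at most 0.184% in any other mouse. By Xist and Y chromosome genes, 1 control, 1 OIR, and 2 treated OIR mice were female. The retina label was checked against 8 rod markers, whose summed level was 36103 to 67209 CPM (counts scaled to a common library size) over the 9 mice. Summed over 10 ganglion cell markers, controls had 1451 to 2071 CPM and OIR mice 223 to 773. Treated OIR mice 2, 5, and 10 had 133, 1191, and 1239. Summed over 9 amacrine markers, controls had 957 to 1232 CPM and OIR mice 378 to 598. In treated OIR mice 2, 5, and 10 the amacrine sums were 310, 683, and 971. None of these markers was at 0 in any mouse. Bipolar cell markers, 8 in number, summed to 1253 to 1472 CPM in controls, 1690 to 1785 in OIR mice, and 1393 to 1451 in treated OIR mice, and 8 Müller glia markers to 4270 to 5449, 5442 to 6284, and 4235 to 5228. Of the 8 endothelial markers, whose sums were 232 to 253, 335 to 425, and 283 to 406, 1 lay apart between OIR and control mice, and their median log2 fold change was 0.03 (range -0.63 to 1.10). In whole retina, fewer cells of a type and less RNA per cell cannot be told apart, and the part of these values in the results below was not tested.

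Between OIR and control mice, Mcl1 rose, at 1.54 times the control level, and was the 1 gene of the 10 that passed the test. The test was edgeR's quasi-likelihood test with an adjusted p below 0.05 over all 17540 genes, which 0.941% of all genes passed in this comparison. Bcl2l11, which encodes the BH3-only protein BIM, had the largest difference of the 10 by fitted fold change, at 2.01 times the control level, and lay just outside the threshold. Bcl2l1, which encodes BCL-XL, was lower in every OIR mouse than in any control mouse. In the other 7 genes the OIR and control mice overlapped. Thus the groups did not overlap in 3 of the 10 genes, against 33% of all genes tested, and 3 had an unadjusted p below 0.05, against 23.8%. Both shares of the 10 are near those of all genes. The median log2 fold change was 0.31 over the 10 genes and 0.03 over all genes tested.

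The promoter stretches of Bcl2l11, Mcl1, and Bcl2l1 are shown because these are the genes whose OIR and control mice did not overlap. Each is the 250 bases before a RefSeq start site (GRCm38.p6), 5′ to 3′ on the strand of the gene. They lie at chr2:128125788-128126037 on the plus strand for Bcl2l11, at chr3:95658471-95658720 on the plus strand for Mcl1, and at chr2:152831729-152831978 on the minus strand for Bcl2l1. For Bcl2l11 and Bcl2l1, which have several start sites in RefSeq, the most upstream is shown. Capitals mark matches on either strand to the HIF cores ACGTG and GCGTG and to the FOXO core GTAAACA.
Bcl2l11: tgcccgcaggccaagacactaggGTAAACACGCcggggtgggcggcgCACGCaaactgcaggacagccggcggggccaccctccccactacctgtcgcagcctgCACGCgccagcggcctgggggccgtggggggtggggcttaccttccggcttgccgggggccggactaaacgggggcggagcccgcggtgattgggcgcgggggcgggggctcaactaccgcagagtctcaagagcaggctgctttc
Mcl1: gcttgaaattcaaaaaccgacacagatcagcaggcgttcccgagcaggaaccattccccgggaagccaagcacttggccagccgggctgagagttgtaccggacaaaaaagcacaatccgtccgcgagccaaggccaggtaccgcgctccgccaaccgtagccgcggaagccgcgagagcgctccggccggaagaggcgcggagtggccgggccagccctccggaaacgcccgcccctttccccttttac
Bcl2l1: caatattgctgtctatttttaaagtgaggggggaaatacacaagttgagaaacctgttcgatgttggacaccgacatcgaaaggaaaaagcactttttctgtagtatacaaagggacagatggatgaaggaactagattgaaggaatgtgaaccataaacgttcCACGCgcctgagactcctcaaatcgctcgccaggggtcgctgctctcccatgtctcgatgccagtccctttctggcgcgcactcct

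In the Bcl2l11 stretch the FOXO core began 227 bases before the start site, and GCGTG stood on the other strand, where it reads CACGC, at 222, 203, and 146 bases before it. The first of these overlaps the FOXO core. The Mcl1 stretch held none of these letters, and the Bcl2l1 stretch held GCGTG on the other strand, 86 bases before the start site. Over 32851 promoter stretches of this length, 3.17% held GTAAACA, 16.6% held ACGTG, and 28.2% held GCGTG. RefSeq gave 14 stretches for 9 of the 10 genes, of which 2 held GTAAACA, 2 held ACGTG, and 5 held GCGTG. The Bcl2l11 and Bcl2l1 stretches not shown held none of these letters. The other stretch with GTAAACA and the other stretches with GCGTG were those of Bbc3. Those with ACGTG belonged to Bbc3 and Bax. In both of these genes OIR and control mice overlapped. No entry was found for Pmaip1. The p53 half-site, searched on both strands because Bbc3, Pmaip1, and Bax are known p53 targets, was in 7.13% of all stretches and in 1 of the 14, that of Bax. These matches describe letters in a window, and binding was not measured.

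Mcl1 (ENSMUSG00000038612, GRCm38 chromosome 3, 95658788 to 95663176) encodes a short-lived pro-survival protein that binds BAK and BIM. In control mice 1, 6, and 7 its log2 CPM was 6.88, 6.90, and 6.80, and OIR mice 3, 5, and 6 had 7.41, 7.38, and 7.64. It was 7.44, 7.28, and 7.09 in treated OIR mice 2, 5, and 10. All 6 mice of the OIR model lay above all 3 controls, and the controls lay closest together. Both groups of the OIR model are set against the same controls. The share of all genes in which all 6 lie apart from the controls was not computed, here or for the genes below. The fitted log2 fold change in OIR mice was 0.62, with a standard error of 0.12 (edgeR adjusted p = 0.0485). Adjusted p was between 3.25e-05 and 0.186 over 19 alternatives by edgeR, DESeq2, and limma-voom, and 10 of these kept the call. In edgeR the call was lost with sex as a covariate (adjusted p = 0.0866), with scaling by total counts alone (adjusted p = 0.0520), and without any single control or OIR mouse or treated OIR mouse 5 (adjusted p from 0.0899 to 0.186, log2 fold change from 0.53 to 0.67). It was kept without treated OIR mouse 2 or 10. The log2 difference was 0.53 between the female mice, 1 in each group, and 0.66 between the male mice.

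**Figure D1:**
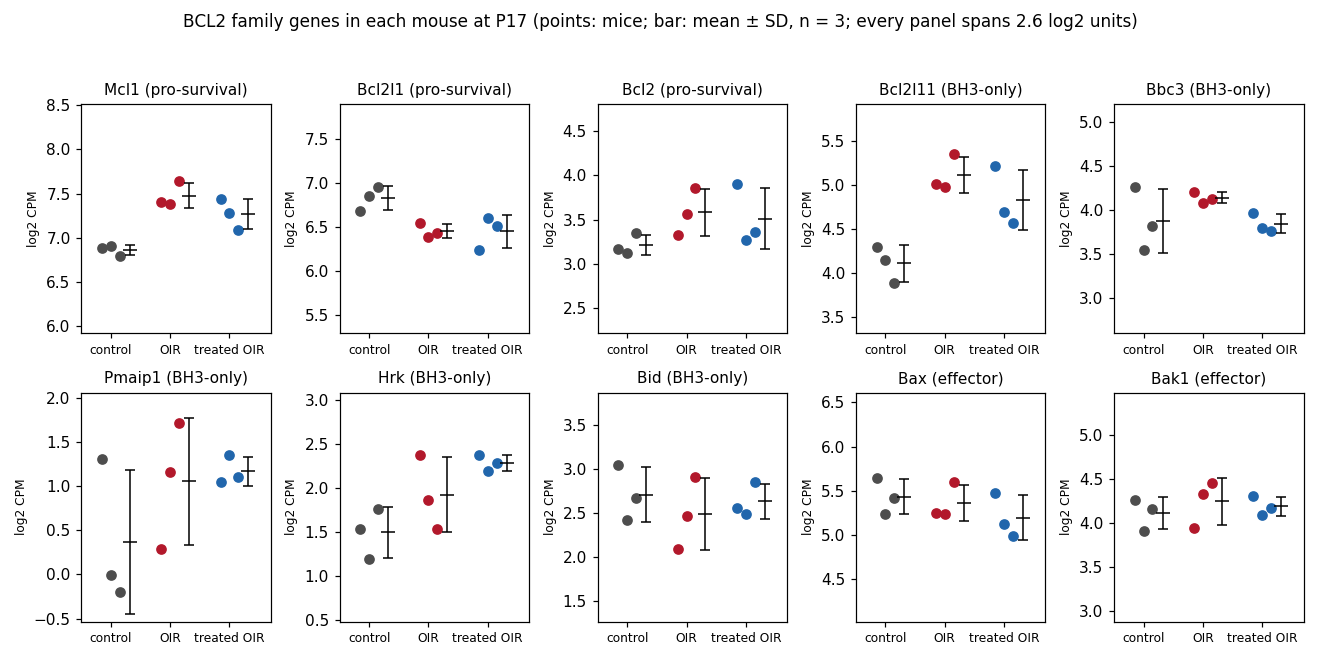
The plot of single mice gives log2 CPM (vertical axis) of each of the 10 genes in control, OIR, and treated OIR mice, with a point per mouse and the mean ± SD (n = 3) beside the points, and every panel spans the same range. The points of all 6 mice of the OIR model lie above the controls for Mcl1 and Bcl2l11 and below them for Bcl2l1. In the other panels OIR and control mice overlap. The same controls serve both groups, and the share of all genes with all 6 mice apart from the controls was not computed.

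Bcl2l1 (ENSMUSG00000007659, GRCm38 chromosome 2, 152780668 to 152831728) encodes BCL-XL, which also keeps BAX away from mitochondria. Controls had a log2 CPM of 6.68, 6.84, and 6.95, OIR mice had 6.54, 6.38, and 6.43, and treated OIR mice had 6.24, 6.60, and 6.50. Every control mouse lay above all 6 others, and treated OIR mouse 2 was the lowest of the 9. The log2 fold change in OIR mice was -0.38 (standard error 0.12, edgeR adjusted p = 0.107), or 77.0% of the control level. Over the 19 alternatives adjusted p lay between 0.0225 and 0.286, and 5 of them called the gene. These were edgeR and DESeq2 on the 2 groups, DESeq2 on all mice, limma-voom, and edgeR without treated OIR mouse 2 (log2 fold change -0.40, adjusted p = 0.0269). The log2 difference was -0.14 between the female mice and -0.49 between the male mice. The ganglion cell and amacrine marker sums were lower in the same OIR mice, and their part in this difference was not tested.

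Bcl2 (ENSMUSG00000057329, GRCm38 chromosome 1, 106538178 to 106714274) is the founding pro-survival member of the family. On the log2 CPM scale it stood at 3.17, 3.12, and 3.34 among controls, at 3.33, 3.56, and 3.85 among OIR mice, and at 3.90, 3.26, and 3.36 among treated OIR mice. OIR mouse 3 lay just below the highest control, and treated OIR mouse 2 was the highest of all. For OIR mice this gave a log2 fold change of 0.39 (95% interval -0.10 to 0.88, edgeR adjusted p = 0.312), and it was 0.24 without OIR mouse 6. Among the pro-survival genes, then, OIR mice lay above all controls for Mcl1 and below them for Bcl2l1, while for Bcl2 only OIR mouse 3 lay among the controls and the others lay above them.

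Among the BH3-only genes, Bcl2l11 (ENSMUSG00000027381, GRCm38 chromosome 2, 128126038 to 128162547) encodes BIM, which can bind all the pro-survival members and activate BAX. Among controls its log2 CPM was 4.30, 4.14, and 3.89, among OIR mice 5.01, 4.98, and 5.35, and among treated OIR mice 5.21, 4.70, and 4.57. The lowest mouse of the OIR model, treated OIR mouse 10, lay above the highest control. OIR mice differed from controls by 1.01 on the log2 scale, with a standard error of 0.20 (edgeR adjusted p = 0.0548). Over the 19 alternatives it ranged from 0.88 to 1.10, with adjusted p from 8.88e-06 to 0.193, and 9 of them called the gene. Among these were edgeR on the 2 groups (adjusted p = 0.0144), both DESeq2 fits, and limma-voom (adjusted p = 0.0095). The edgeR fits without treated OIR mouse 2 (adjusted p = 0.0071) and with the lens gene score as a covariate (adjusted p = 0.0278) also called it. In edgeR it was not called with sex as a covariate (adjusted p = 0.0866) or with total counts alone (adjusted p = 0.0537). Nor was it called in edgeR without any other single mouse (adjusted p from 0.0505 to 0.193). The log2 difference was 0.71 between the female mice and 1.15 between the male mice.

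Bbc3 (ENSMUSG00000002083, GRCm38 chromosome 7, 16308393 to 16318205) encodes PUMA, a BH3-only protein induced by p53. It had a log2 CPM of 4.27, 3.55, and 3.82 among controls, 4.21, 4.09, and 4.13 among OIR mice, and 3.97, 3.80, and 3.77 among treated OIR mice. Control mouse 1 was the highest of the 9 and control mouse 6 the lowest, so the controls spanned both other groups. Relative to controls, OIR mice differed by 0.23 log2 units (95% interval -0.19 to 0.65, edgeR adjusted p = 0.480). The difference was 0.46 without control mouse 1 (edgeR unadjusted p = 0.0190, adjusted p = 0.154) and 0.08 without control mouse 6.

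Pmaip1 (ENSMUSG00000024521) encodes NOXA, which binds MCL1, and had 12 to 71 counts per mouse. Controls lay at 1.31, -0.01, and -0.19 log2 CPM, OIR mice at 0.29, 1.17, and 1.72, and treated OIR mice at 1.05, 1.35, and 1.11. Control mouse 1 lay among the mice of the OIR model, and OIR mouse 3 lay near the other controls. A log2 fold change of 0.65 in OIR mice had a 95% interval from -0.50 to 1.80 (edgeR adjusted p = 0.471). Leaving out 1 mouse moved it from 0.26, without OIR mouse 6, to 1.36, without control mouse 1 (edgeR unadjusted p = 0.0215, adjusted p = 0.160).

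Hrk (ENSMUSG00000046607, GRCm38 chromosome 5, 118164648 to 118189478) encodes Harakiri, a BH3-only protein known from dying neurons, and had 44 to 95 counts per mouse. The log2 CPM of the controls was 1.53, 1.19, and 1.76, that of OIR mice 2.37, 1.87, and 1.53, and that of treated OIR mice 2.37, 2.19, and 2.29. OIR mouse 6 was level with control mouse 1, while all 3 treated OIR mice lay above all controls. In OIR mice the log2 fold change was 0.47 (95% interval -0.17 to 1.11, edgeR adjusted p = 0.348), and it was 0.21 without OIR mouse 3.

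Bid (ENSMUSG00000004446, GRCm38 chromosome 6, 120891930 to 120916853) encodes the BH3-only protein that caspase-8 cleaves, which joins death receptors to mitochondria. Controls ranged from 2.42 to 3.04 log2 CPM, OIR mice from 2.09 to 2.91, and treated OIR mice from 2.49 to 2.86, and all groups overlapped. Between OIR mice and controls the log2 fold change was -0.21 (edgeR adjusted p = 0.686), and it ran from -0.44 without OIR mouse 6 to -0.02 without control mouse 1. Its exons share 628 of 3550 bases with Bcl2l13 on the opposite strand, a gene with 12870 counts over the 9 mice. The strand setting of the counting is not given in the sources used here, so the value of Bid is uncertain.

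The effectors showed small differences. Bax (ENSMUSG00000003873, GRCm38 chromosome 7, 45461697 to 45466898) encodes the cytosolic effector and had a log2 CPM of 5.64, 5.24, and 5.42 among controls, 5.25, 5.23, and 5.60 among OIR mice, and 5.48, 5.12, and 4.98 among treated OIR mice. The groups overlapped, with control mouse 1 highest and treated OIR mouse 10 lowest. The log2 fold change of Bax in OIR mice was -0.07 (95% interval -0.45 to 0.31, edgeR adjusted p = 0.840), and it was 0.0039 with limma-voom and 0.04 in edgeR without control mouse 1. Of the 1576 exonic bases of Bax, 192 are shared with Gm45808 on the same strand, which had 9 counts over the 9 mice. How reads in this stretch were counted is not given.

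Bak1 (ENSMUSG00000057789, GRCm38 chromosome 17, 27019810 to 27029009) encodes BAK, the effector that resides on mitochondria. Controls had 4.26, 3.90, and 4.16 log2 CPM, OIR mice 3.94, 4.33, and 4.45, and treated OIR mice 4.30, 4.09, and 4.16, and all groups overlapped. For Bak1 the fitted log2 fold change in OIR mice was 0.14 (95% interval -0.23 to 0.52, edgeR adjusted p = 0.640), and it ran from 0.04 without OIR mouse 6 to 0.28 without OIR mouse 3. Of its 2407 exonic bases, 437 are shared with Ggnbp1 on the opposite strand, which had 540 counts over the 9 mice.

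Levels were compared between genes per length, as CPM per kilobase of the gene length in the count table. In control retina Mcl1 was the highest at 34.0 ± 1.30 (SD, n = 3), followed by Bax at 27.5 ± 3.88 and Bcl2l1 at 24.8 ± 2.30. Bak1 and Bbc3 lay lower, at 7.15 ± 0.88 and 7.02 ± 1.81, and the ranges of these neighbors overlapped, as did those of Bax and Bcl2l1. Bcl2l11 at 2.15 ± 0.31 overlapped Bid at 1.84 ± 0.41, and Bcl2 followed at 1.003 ± 0.084. Pmaip1 and Hrk were the lowest, at 0.509 ± 0.337 and 0.485 ± 0.098, and overlapped. In OIR mice Mcl1 stood at 52.2 ± 5.26 and Bcl2l1 at 19.1 ± 1.12 on this scale, and Bcl2l11 stood at 4.33 ± 0.65. The order of the 10 genes rests on the division by length, since 1 of the 10 kept its rank by CPM alone.

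**Figure D2:**
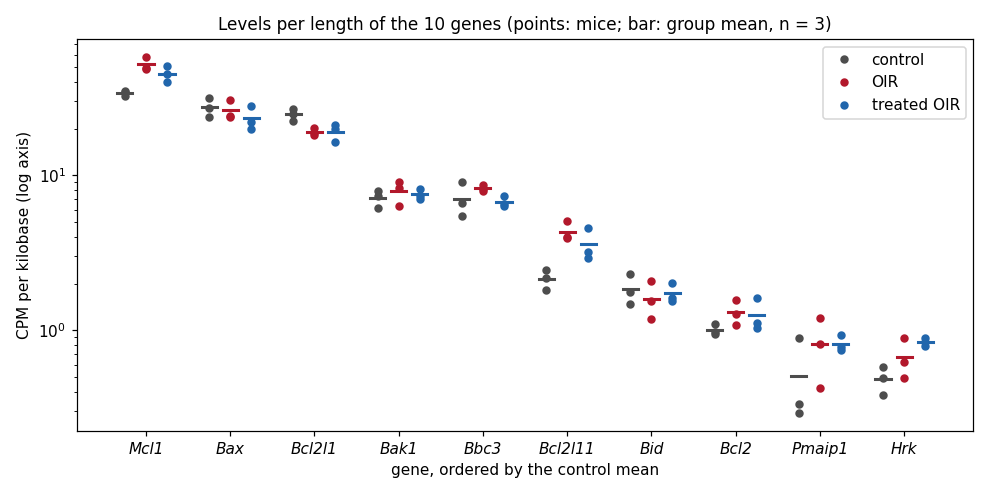
The plot of levels per length gives CPM per kilobase on a log axis for each gene, ordered by the control mean, with a point per mouse and a bar at the mean of each group (n = 3). Mcl1, Bax, and Bcl2l1 lie highest in every group, and Hrk and Pmaip1 lie lowest.

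The second comparison, of treated OIR with control mice, shares its controls with the first. None of the 10 genes passed the test, which 0.0228% of all genes passed. In 4 of the 10 the groups did not overlap, against 25% of all genes, and the same number had an unadjusted p below 0.05, against 18.6%. These were Bcl2l11, Mcl1, Bcl2l1, and Hrk. Bcl2l11 differed by 0.73 on the log2 scale (standard error 0.20, edgeR adjusted p = 0.145), and that of Mcl1 was 0.41 (standard error 0.12, edgeR adjusted p = 0.151). For Bcl2l1 it was -0.38 (standard error 0.12, edgeR adjusted p = 0.173). Hrk differed by 0.80 on the log2 scale (standard error 0.28, edgeR adjusted p = 0.207), the largest of the 10 in this comparison. The other 6 genes overlapped and had log2 fold changes from -0.23 for Bax to 0.65 for Pmaip1. Without treated OIR mouse 2, the edgeR log2 fold changes were 0.52 for Bcl2l11, 0.33 for Mcl1, -0.27 for Bcl2l1, 0.76 for Hrk, -0.38 for Bax, and 0.11 for Bcl2, which was 0.33 with it. In other tools, DESeq2 on all mice called Bcl2l11 (log2 fold change 0.72, adjusted p = 0.0331), and limma-voom called Mcl1 (log2 fold change 0.36, adjusted p = 0.0479).

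**Figure D3:**
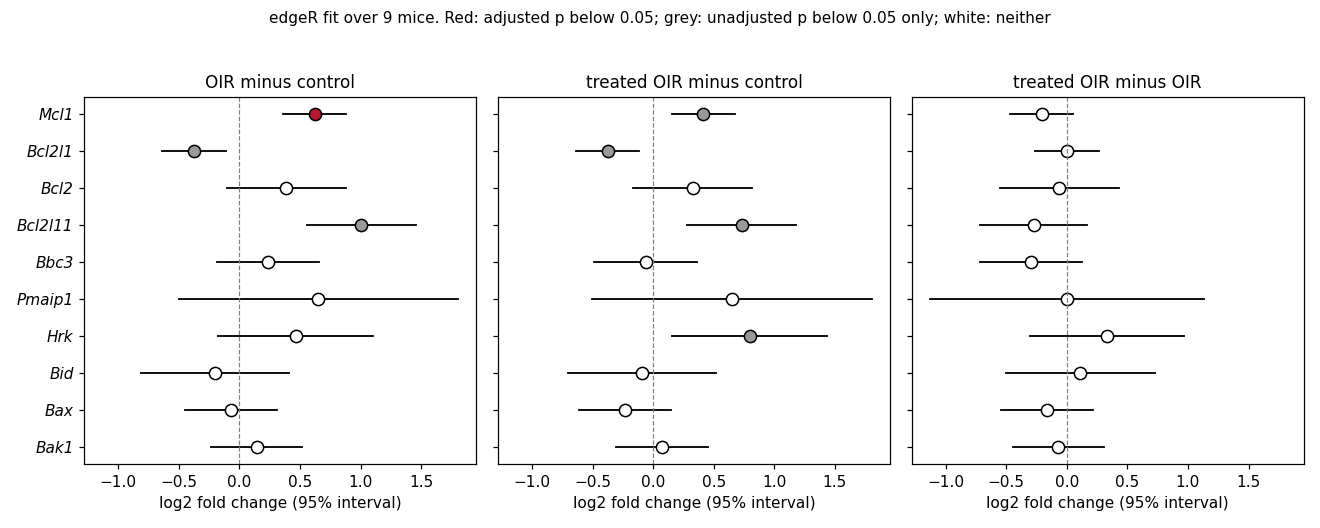
The plot of fold changes gives the log2 fold change of each gene with its 95% interval in the 3 comparisons, from the edgeR fit over 9 mice, with red for an adjusted p below 0.05, grey for an unadjusted p below 0.05 alone, and white for neither. Mcl1 in OIR against control mice is the 1 red point, and in treated OIR against OIR mice every interval includes 0.

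The third comparison, of treated OIR with OIR mice, asks what the HIF inhibitor changed in ischemic retina. In the same edgeR fit as above, none of the 10 genes passed the test or had an unadjusted p below 0.05. Of all genes tested, 0% passed in that fit and 4.69% had an unadjusted p below 0.05. With the lens gene score as a covariate, 1 of the 10 and 1108 of all genes had an edgeR unadjusted p below 0.05. These counts were 1 and 981 with scaling by total counts alone, and 1 and 2362 without treated OIR mouse 2. None of the 10 was called in these fits. The lowest point values were those of Bbc3 at -0.30 (95% interval -0.72 to 0.13), Bcl2l11 at -0.27 (95% interval -0.72 to 0.17), and Mcl1 at -0.21 (95% interval -0.47 to 0.05), all on the log2 scale. Bbc3 was the 1 gene of the 10 whose groups did not overlap, lower in all 3 treated OIR mice, where 9.13% of all genes did not overlap in either direction and 5.39% did not in this one. For Bcl2l1 the log2 difference was 0.0025 (95% interval -0.26 to 0.27), and for Bax it was -0.16 (95% interval -0.54 to 0.22). Hrk was at 0.33 (95% interval -0.30 to 0.96), and the interval of Pmaip1 ran from -1.13 to 1.13. These intervals leave room for changes of either sign, so the test does not show that the levels were alike. The sum of 8 microglial markers was 124 to 149 CPM in treated OIR mice, below the 214 to 406 of OIR mice. Controls, at 109 to 402 CPM, overlapped both. The sums of the Müller glia and bipolar markers given above were also lower in all 3 treated OIR mice. The part of these 3 marker sets in the values was not tested.

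Treated OIR mouse 2 bears on this comparison. It had the highest Bcl2l11, Mcl1, Bcl2, Bbc3, Hrk, Bax, and Bak1 values of the 3 treated OIR mice and the lowest Bcl2l1 and Pmaip1 values, and also the lowest ganglion cell marker sum of the 9 mice and the high crystallin share. Without it, Bcl2l11 differed from OIR mice by -0.47 on the log2 scale (edgeR unadjusted p = 0.0269, adjusted p = 0.309), Mcl1 by -0.27 (edgeR unadjusted p = 0.0509, adjusted p = 0.386), and Bax by -0.29. Bcl2 then stood at -0.26, from -0.06 with it, and Bcl2l1 at 0.13. With limma-voom, which weights the mice by quality, Bcl2l11 stood at -0.41 (unadjusted p = 0.0116) and Mcl1 at -0.22 (unadjusted p = 0.0368), and neither passed after adjustment.

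Differences between an effector and a pro-survival gene within a mouse were taken on the log2 CPM scale, without division by length. They are a description with no test, and their size within a group also holds the difference in gene length. Bax minus Bcl2 was 2.48, 2.11, and 2.07 among controls, 1.92, 1.67, and 1.75 among OIR mice, and 1.57, 1.86, and 1.62 among treated OIR mice. All 6 mice of the OIR model lay below all controls, and the group means were 2.22 ± 0.22, 1.78 ± 0.13, and 1.69 ± 0.15 (SD, n = 3). Bak1 minus Mcl1 was -2.63, -3.00, and -2.64 among controls, -3.46, -3.05, and -3.19 among OIR mice, and -3.14, -3.19, and -2.92 among treated OIR mice. The OIR mice lay below all controls and treated OIR mouse 10 lay above control mouse 6, with means of -2.75 ± 0.21, -3.23 ± 0.21, and -3.08 ± 0.14 (SD, n = 3). Bcl2l1, which was lower in OIR mice than in controls, was in neither pair. Its control level per length was 24.8 CPM per kilobase, against 1.003 for Bcl2. These pairs therefore do not describe the balance of the family.

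The other genes of the cell death pathways were taken from 6 lists. Between OIR and control mice, 2 of their genes passed the test. Foxo1, a transcription factor known to activate Bcl2l11, rose, with a log2 CPM of 4.52, 4.48, and 4.53 among controls against 5.08, 5.03, and 5.31 among OIR mice (log2 fold change 0.64, standard error 0.11, edgeR adjusted p = 0.0456). It was 5.08, 5.08, and 4.92 in treated OIR mice, also above all controls. Cflar, which encodes the caspase-8 inhibitor c-FLIP, rose from 5.44, 5.60, and 5.52 among controls to 6.15, 6.01, and 6.03 among OIR mice (log2 fold change 0.55, standard error 0.09, edgeR adjusted p = 0.0407). It was 5.80, 5.85, and 5.67 in treated OIR mice, between both other groups with no overlap. As for Mcl1, these adjusted p-values lay close to the threshold. Both calls were lost in edgeR with sex as a covariate and without any single control or OIR mouse or treated OIR mouse 5, where no gene was called.

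By list, none of the 11 other BCL2 family genes tested passed between OIR and control mice, and their median log2 fold change was -0.23, with the smallest p for Bmf, a BH3-only gene, at 0.63 (edgeR adjusted p = 0.137). None of the 17 apoptosome and caspase genes passed, with a median of 0.23. None of the 16 genes of p53 and its targets passed, with a median of 0.15, and Trp53inp1 stood at 0.51 (edgeR adjusted p = 0.0539). Of the 14 JNK and stress regulators 1 rose, Foxo1, and of the 9 death receptor genes 1 rose, Cflar, with list medians of 0.00 and 0.55. None of the 7 necroptosis and pyroptosis genes passed, with a median of 0.43, and Gsdmd, the pore-forming gasdermin D, stood at 0.67 (edgeR adjusted p = 0.354). These counts are to be read against the 0.433% of all genes that rose and the 0.507% that fell.

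**Figure D4:**
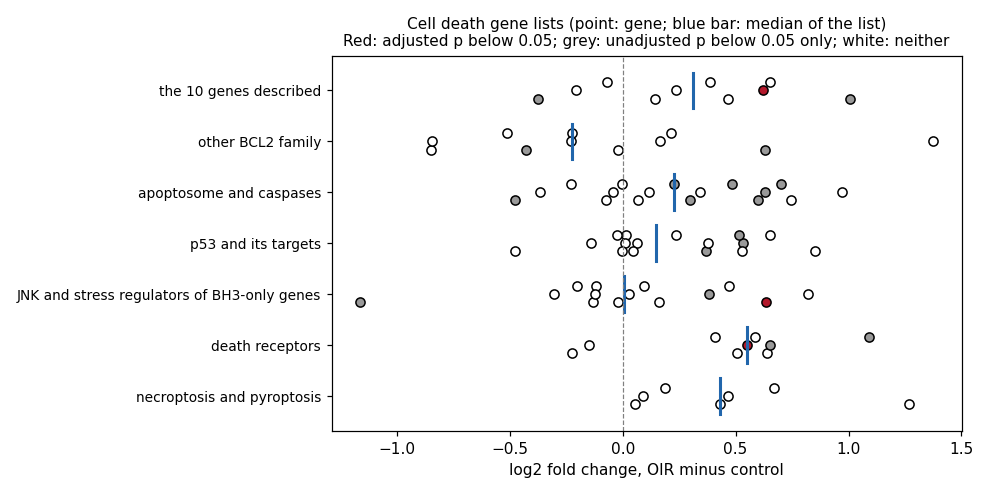
The plot of gene lists gives the log2 fold change between OIR and control mice (horizontal axis) of each of the 10 genes (top line) and of each gene tested in the 6 lists, with a point per gene, a blue bar at the list median, red for an adjusted p below 0.05, and grey for an unadjusted p below 0.05 alone. Mcl1 on the top line and Foxo1 and Cflar in the lists are the red points, and the points of every list but that for necroptosis and pyroptosis lie on both sides of 0.

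In treated OIR against control mice no gene of these lists passed the test. The smallest p of each list belonged to Bmf at 0.57, Cycs, which encodes cytochrome c, at -0.44, Mdm2, the p53 ubiquitin ligase, at 0.32, Foxo1 at 0.52, Cflar at 0.26, and Zbp1, a sensor of necroptosis, at -0.89, all as log2 fold changes with edgeR adjusted p from 0.108 to 0.476. In treated OIR against OIR mice none passed either. Trp53inp1 stood at -0.24 (edgeR unadjusted p = 0.0419, adjusted p = 0.9998) and Cflar at -0.29 (edgeR unadjusted p = 0.00998, adjusted p = 0.984). For Bcl2l2, which encodes the pro-survival protein BCL-w, the log2 difference was 0.23, and for Mapk9, which encodes JNK2, it was 0.31. For Gsdmd it was -0.94 (standard error 0.42, edgeR unadjusted p = 0.0520), at a low level of 0.67 to 1.90 log2 CPM in these mice. The edgeR adjusted p of each was 0.9998.

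**Figure D5:**
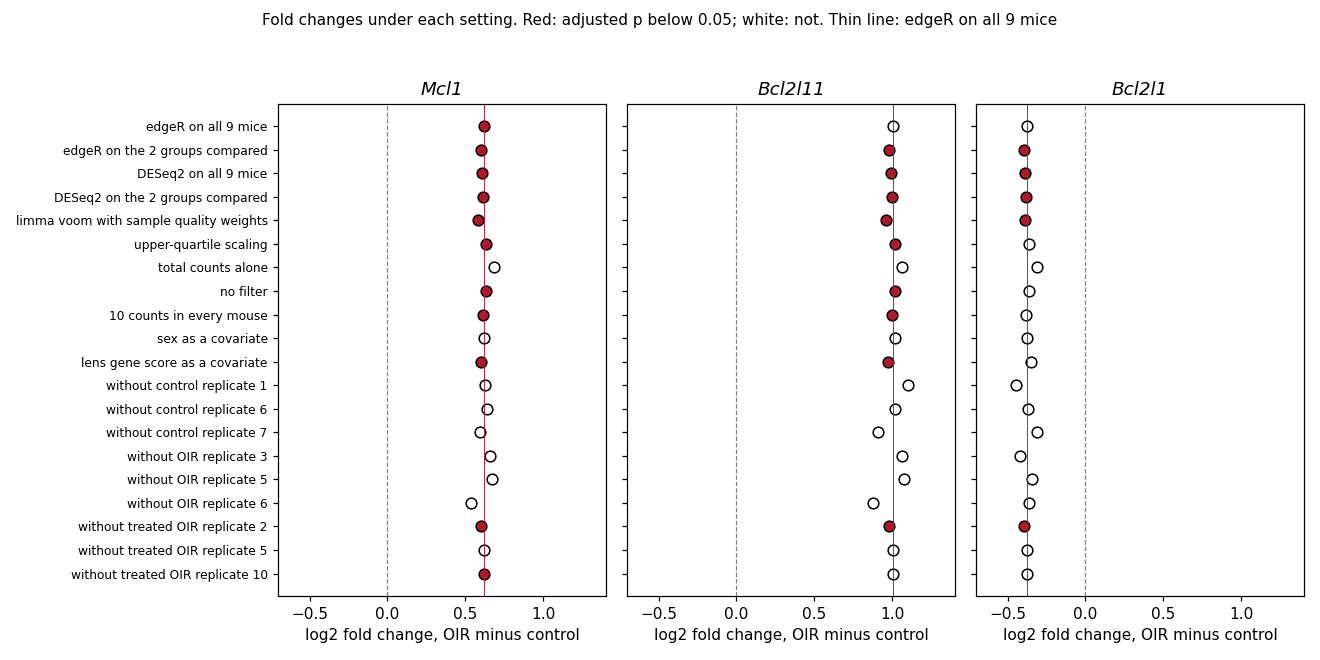
The plot of settings gives the log2 fold change between OIR and control mice (horizontal axis) of Mcl1, Bcl2l11, and Bcl2l1 under each tool, scaling, filter, covariate, and left-out mouse, with red for an adjusted p below 0.05, white for none, and a thin line at the edgeR value over 9 mice. Mcl1 stays between 0.53 and 0.68, Bcl2l11 between 0.88 and 1.10, and Bcl2l1 between -0.45 and -0.31, while the adjusted p crosses the threshold in all 3 panels.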

How the data were processed

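Total RNA was isolated from mouse retina at P17 and sequenced on Illumina libraries. The deposited values are raw counts per gene, 1 column per mouse. Per the labels, the submitters' processing notes name CASAVA and HISAT; the counting tool, annotation, and strand setting are not given in the sources used here. Of 54532 gene IDs, 53499 had the same position in GENCODE M21 (GRCm38).

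Counts were filtered with filterByExpr, scaled by TMM, and fitted with edgeR 4.0.16 (R 4.3.3), with 1 mean per group over all 9 mice, since the RNA-Seq test of the study is not given in the sources used here. P-values were adjusted by Benjamini-Hochberg over 17540 genes, and standard errors were taken from the log2 fold change and its F statistic. Levels are log2 CPM with a prior count of 2. Alternatives were DESeq2 1.42.0, limma 3.58.1 (voom with quality weights), fits on 2 groups, other scalings and filters, a covariate for sex or for lens genes, and leaving out each mouse. The fits were tested on simulated data. Within-sex values were chosen after seeing the data. All 10 members and, of each pathway list, the gene with the smallest p and any gene called are named, except for an item that is not reported here. The members and lists were chosen with earlier results of these data known.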

Additional observations from a re-analysis of the deposited data

How the results depend on the processing

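Of the alternative fold changes of the 10 genes, 523 were unchanged, 16 gained a call, 9 lost it, 26 changed sign, and 2, both between female mice, moved by more than 1 SD. Unchanged means the same direction and side of the threshold, and sets no limit on size. Between OIR and control mice, Pmaip1 ran from 0.26 to 1.36 and counted as unchanged. In the edgeR fit over all mice, Mcl1 between OIR and control mice was the 1 fold change called, so most could only stay uncalled or gain a call. For the within-sex values, which have no p, unchanged means within 1 SD. Mcl1, Bcl2l11, and Hrk changed sign under none of the 19 alternatives in any comparison. The cause of the changes was not tested. The numbers in the titles pair no mice across groups, so no paired analysis was run and no replicate block was fitted.

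Between OIR and control mice, 1 of the 10 genes and 165 of all genes were called. The calls were 3 of the 10 and 1771 genes with edgeR on 2 groups, 3 and 1977 with DESeq2 on all mice, 3 and 2683 with DESeq2 on 2 groups, and 3 and 2305 with limma-voom. They were 2 and 230 with upper-quartile scaling, 2 and 532 with no filter, 2 and 376 with 10 counts in every mouse, and 2 and 676 with the lens score. They were 0 and 37 with total counts alone, and 0 and 0 with sex, where 3775 genes had an unadjusted p below 0.05 in edgeR. Leaving out 1 mouse gave 0 to 3 of the 10 and 0 to 2272 genes, with 3 and 2272 without treated OIR mouse 2, and 0 and 0 in edgeR without any control or OIR mouse or treated OIR mouse 5, where 2845 to 4140 genes had an unadjusted p below 0.05.

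Between treated OIR and control mice, where 0 of the 10 and 4 genes were called, DESeq2 on all mice called 1 and 842, limma-voom 1 and 926, DESeq2 on 2 groups 374 genes, and no filter 18. In edgeR 0 genes were called on 2 groups, with sex, and with the lens score, where 2618, 2405, and 2452 had an unadjusted p below 0.05. Leaving out 1 mouse gave 0 of the 10 and 0 to 6 genes, and where edgeR then called 0 genes, 2323 to 3015 had an unadjusted p below 0.05. Between treated OIR and OIR mice, where edgeR called 0 genes and 823 had an unadjusted p below 0.05, DESeq2 called 31 on all mice and 73 on 2 groups, limma-voom called 1, and no filter called 1. By CPM without division by length, 1 of the 10 kept its rank. Leaving out 1 mouse gave Bax minus Bcl2 differences of -0.51 to -0.31, -0.62 to -0.41, and -0.18 to -0.02, and Bak1 minus Mcl1 differences of -0.60 to -0.37, -0.45 to -0.27, and 0.04 to 0.24, in the order of the comparisons.

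The fold changes whose sign changed lay between -0.09 and 0.11 in the edgeR fit over all mice. Between OIR and control mice Bax was 0.00391 with limma-voom and ran from -0.201 to 0.0403 on leaving out 1 mouse. Between treated OIR and control mice Bbc3 and Bid were 0.0763 and 0.0278 with limma-voom, and leaving out 1 mouse gave -0.214 to 0.160 for Bbc3, -0.230 to 0.0956 for Bid, and -0.0230 to 0.149 for Bak1. Between treated OIR and OIR mice Bcl2l1 was -0.0150 with upper-quartile scaling, -0.0792 with total counts, and -0.00445 with no filter, and Pmaip1 was 0.00441 with DESeq2 on 2 groups, 0.255 with limma-voom, and 0.0279 with the lens score. Leaving out 1 mouse there gave -0.0772 to 0.128 for Bcl2l1, -0.306 to 0.396 for Pmaip1, -0.258 to 0.0870 for Bcl2, -0.205 to 0.0373 for Bak1, and -0.0668 to 0.352 for Bid.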
